A study of Mus musculus with 8 samples.

Results

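The insulin-like growth factor (IGF) ligands and IGF-binding proteins of a mouse nerve sheath tumour line were followed as 8 genes, Igf1, Igf2, Igfbp2, Igfbp3, Igfbp4, Igfbp5, Igfbp6 and Igfbp7, taken by symbol from a table of 50600 genes. All 8 were listed once, and 6 of them reached 10 or more counts in 2 or more libraries. Igf2 and Igfbp5 did not and were not tested. The count table comes from poly(A) RNA sequencing of NF1-MET cells, a line from a malignant peripheral nerve sheath tumour (MPNST), and of their derivative NF1-MET;sgP53. The study asked how loss of p53 changes the response of these MET-dependent cells to MET inhibition.

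Both lines carry the tumour's alleles: Nf1 fl/ko, the transgene lox-stop-loxMET tg/+ and, to drive it, Plp-creERT tg/+, a tamoxifen-inducible Cre under the Plp promoter that acts in Schwann-lineage cells. Met is amplified in this tumour, with wild-type Trp53 and a spontaneous deletion of Cdkn2a. NF1-MET;sgP53 cells in addition received a lentiviral CRISPR-Cas9 vector with a guide against Trp53 and were selected with puromycin. The study also made an NF1-MET;sgEmptyVector line with the vector lacking a guide. The libraries titled NF1-MET have sample codes that begin with SEVV (vehicle) or SEVC (capmatinib), which the labels do not spell out, so whether these cells carried the empty vector is not settled by the labels. In serum-containing medium, each line was exposed to vehicle (DMSO) or to the MET kinase inhibitor capmatinib at 100 nM, and RNA was taken after 24 h. The 4 groups, NF1-MET in vehicle, NF1-MET in capmatinib, NF1-MET;sgP53 in vehicle and NF1-MET;sgP53 in capmatinib, each hold 2 libraries from duplicate wells. There is 1 line per genotype, so the p-values measure only the spread between wells and cannot tell the guide's effect from other differences between the lines.

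IGF1 and IGF2 are secreted growth factors that signal through the type 1 IGF receptor and its IRS adaptors to PI3K and RAS. In the extracellular space most IGF is held by binding proteins, which lengthen its life, keep it from the receptor or release it when a protease cuts them. IGFBP2 to IGFBP6 bind IGFs tightly, whereas IGFBP7 is a related matrix-associated protein of low affinity. Schwann cells are known to respond to IGF1 with survival and myelination.

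Library totals ran from 30.1 to 42.8 M counts (median 36.5 M). Levels are given as counts-per-million (CPM) of the library size scaled with edgeR's TMM factors, and 3 counts, the limit that a count of 0 allows, corresponded to 0.0702 to 0.108 CPM. Gm42418, which overlaps ribosomal RNA, took 1.11% to 13.1% of the counts of a library, with 10.0% and 1.11% in the duplicates of NF1-MET;sgP53 in capmatinib. Trp53 stood at 182 and 193 CPM in NF1-MET in vehicle against 97.5 and 100 CPM in NF1-MET;sgP53 in vehicle, and its target Cdkn1a at 92.9 and 87.2 against 29.5 and 27.1 CPM. Of 10 Schwann and neural crest markers 5 passed the count filter, the lineage factor Sox10 had 0 to 7 counts per library, and the summed list ran from 21.4 to 24.0 CPM in vehicle and from 6.94 to 7.75 CPM in capmatinib, mostly Gap43. Of 6 genes typical of fibroblasts 5 passed, led by Col1a1, and their sum ran from 3906 to 5045 CPM in vehicle and from 18945 to 19417 CPM in capmatinib. Within this list Col1a1, Col3a1 and Pdgfrb were called higher with capmatinib in both lines, Pdgfra was called lower in both (log2 change -0.38 and -0.32, edgeR), Dcn was called lower in NF1-MET alone (-0.86, and -0.31 without a call in NF1-MET;sgP53), and Lum was at or near 0. Macrophage, endothelial, epithelial and skeletal muscle lists summed to at most 2.12 CPM in any library, with Adgre1, Tie1, Cldn4, Myod1 and Myog at 0 throughout. The part of these shifts in the results on the IGF genes was not tested. In bulk RNA, fewer cells that express a gene and less of its RNA per cell cannot be told apart.

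Capmatinib turned the IGF gene profile over in both lines. From a low level the ligand gene Igf1 rose 19.7-fold in NF1-MET cells and 20.6-fold in NF1-MET;sgP53, Igfbp7 rose 12.5-fold in NF1-MET cells and 7.17-fold in NF1-MET;sgP53, and Igfbp4 rose 2.32-fold and 2.47-fold. Igfbp3 fell 25.0-fold in NF1-MET cells and 12.2-fold in NF1-MET;sgP53, and Igfbp6 fell 1.69-fold and 1.34-fold. Igfbp2 passed the count filter only through the libraries of NF1-MET;sgP53 in capmatinib and is described apart. Of the 5 other members tested, 3 were called higher (Igf1, Igfbp4 and Igfbp7) and 2 lower (Igfbp3 and Igfbp6) in each line by edgeR's quasi-likelihood test at a Benjamini-Hochberg adjusted p under 0.05. The same test called 70.2% of all genes in NF1-MET (35.5% higher, 34.7% lower) and 67.6% in NF1-MET;sgP53 (34.2% higher, 33.4% lower), so a call alone was common among all genes. In size, 4 of the 5 changed at least 2-fold in each line, and their median absolute log2 change was 3.65 in NF1-MET cells and 2.84 in NF1-MET;sgP53, against 0.41 and 0.40 over all genes tested. Their median signed log2 change was 1.21 for NF1-MET and 1.31 for NF1-MET;sgP53, where the median over all genes was 0.00 in each.

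**Figure D1:**
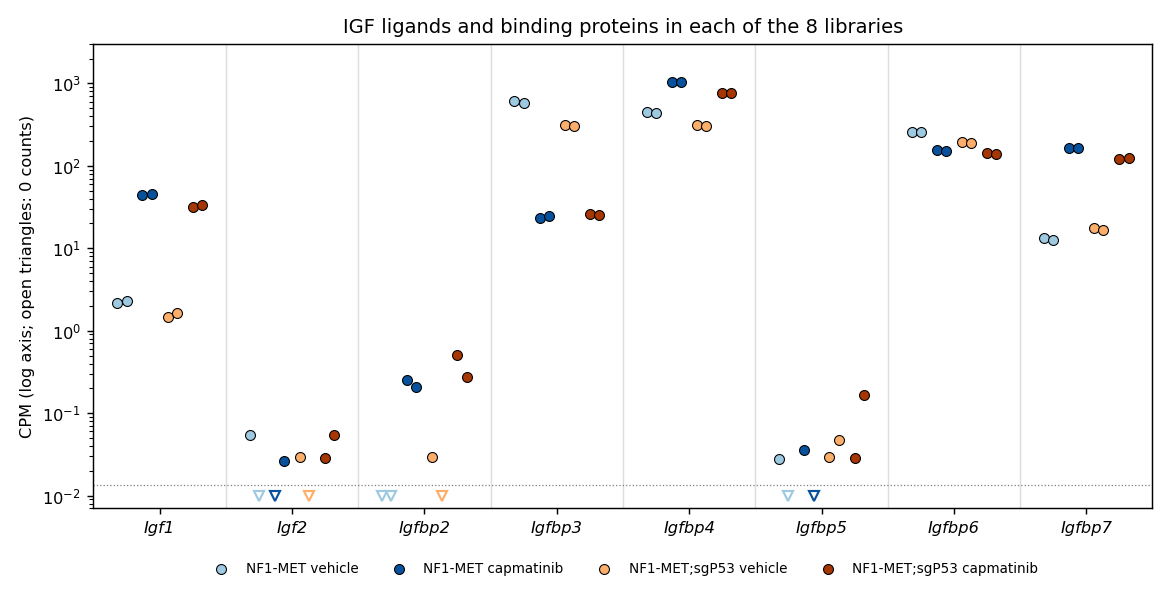
Level of each IGF ligand and binding protein gene in CPM (log axis) in the 8 libraries, coloured by group, with libraries at 0 counts drawn as open triangles below the dotted line. In capmatinib Igf1, Igfbp4 and Igfbp7 lie above and Igfbp3 and Igfbp6 below their vehicle libraries in both lines, and Igf2 and Igfbp5 stay near the level of single counts.

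The main ligand gene, Igf1 (chromosome 10, 87858265 to 87937042, plus strand, mm10), had 2.18 and 2.28 CPM in NF1-MET in vehicle and 44.2 and 44.9 CPM in capmatinib. The NF1-MET;sgP53 libraries had 1.48 and 1.66 CPM in vehicle and 32.0 and 33.3 CPM in capmatinib. Every capmatinib library lay above every vehicle library, and within each treatment both NF1-MET;sgP53 libraries lay below both NF1-MET libraries. The log2 change with capmatinib was 4.30 ± 0.0825 (SE, edgeR, adjusted p = 2.39e-29) in NF1-MET and 4.36 ± 0.0950 (adjusted p = 2.00e-20) in NF1-MET;sgP53. These were the 92nd and 62nd largest increases among the 14496 and 14497 genes tested.

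The other ligand, Igf2 (chromosome 7, 142650766 to 142666816, minus strand), a growth factor expressed from the paternal allele in the fetus, had 0 to 2 counts per library, below the limit that a count of 0 allows. Its exons overlap those of Gm49394 and of the antisense gene Igf2os. H19, its imprinted neighbour, had 0 to 8 counts. A change of Igf2 was not detectable at this depth.

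Igfbp3 (chromosome 11, 7206086 to 7213923, minus strand), the main carrier of IGFs in serum, had 604 and 585 CPM in NF1-MET in vehicle and 23.0 and 24.9 CPM in capmatinib. In NF1-MET;sgP53 it had 312 and 305 CPM in vehicle and 25.7 and 25.1 CPM in capmatinib. The vehicle groups thus lay apart from each other, while the capmatinib libraries of both lines lay close together. The log2 change was -4.64 ± 0.0330 (SE, edgeR, adjusted p = 3.92e-41) in NF1-MET, the 31st largest decrease of 14496 genes, and -3.60 ± 0.0370 (adjusted p = 3.85e-26) in NF1-MET;sgP53, the 56th of 14497.

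Igfbp7 (chromosome 5, 77349240 to 77408041, minus strand), a secreted protein of vessels and matrix, had 13.4 and 12.8 CPM in NF1-MET in vehicle and 166 in both capmatinib libraries. Levels in NF1-MET;sgP53 were 17.4 and 16.9 CPM in vehicle and 121 and 125 CPM in capmatinib. The lines changed order: both NF1-MET;sgP53 libraries were above NF1-MET in vehicle and below it in capmatinib. The log2 change was 3.65 ± 0.0398 (SE, edgeR, adjusted p = 4.75e-36) in NF1-MET and 2.84 ± 0.0388 (adjusted p = 5.01e-24) in NF1-MET;sgP53. Of its 1209 exon bases, 85 are shared with Polr2b on the opposite strand, and the strand setting of the counting is not given in the sources used here. Polr2b had 127 CPM in both NF1-MET vehicle libraries and 101 and 97.2 CPM in capmatinib. In NF1-MET;sgP53 it had 138 and 140 CPM in vehicle and 103 and 105 CPM in capmatinib. The part of the shared bases in the Igfbp7 counts was not tested.

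The start regions of these 3 genes, which showed the largest changes among the abundant members, are given for reference from 250 bases before to 50 after the RefSeq start (GRCm38.p6, 5′ to 3′ on the gene's strand). Capitals mark matches on either strand to a set of 7 short motifs.
Igf1, chr10:87860861-87861160, plus strand: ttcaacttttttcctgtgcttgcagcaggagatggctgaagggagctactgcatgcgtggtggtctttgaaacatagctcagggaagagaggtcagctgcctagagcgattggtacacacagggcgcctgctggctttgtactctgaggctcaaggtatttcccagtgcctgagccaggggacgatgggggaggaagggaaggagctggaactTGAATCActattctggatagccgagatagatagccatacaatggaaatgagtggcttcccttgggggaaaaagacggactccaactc
Igfbp3, chr11:7213874-7214173, minus strand: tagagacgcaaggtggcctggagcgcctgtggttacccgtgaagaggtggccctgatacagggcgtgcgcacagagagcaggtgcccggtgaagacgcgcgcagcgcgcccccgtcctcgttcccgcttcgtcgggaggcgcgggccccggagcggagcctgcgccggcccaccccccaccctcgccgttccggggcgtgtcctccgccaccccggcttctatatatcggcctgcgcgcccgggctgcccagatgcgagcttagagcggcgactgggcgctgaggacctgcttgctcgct
Igfbp7, chr5:77407996-77408295, minus strand: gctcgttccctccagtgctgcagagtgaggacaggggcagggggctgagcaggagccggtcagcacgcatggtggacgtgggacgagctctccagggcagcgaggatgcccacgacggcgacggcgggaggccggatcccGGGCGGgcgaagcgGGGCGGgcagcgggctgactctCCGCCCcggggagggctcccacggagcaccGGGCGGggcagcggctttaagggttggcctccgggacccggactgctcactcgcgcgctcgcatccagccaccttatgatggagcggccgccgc
The Igf1 window, which lies at a RefSeq start inside the gene, holds 1 AP-1 motif (TGANTCA) with its first base at -37 from the start. The Igfbp7 window holds 4 SP1 motifs (GGGCGG) at -110, -96, -74 and -44, and the Igfbp3 window holds none of the motifs. The GC content was 52.3% for Igf1, 71.7% for Igfbp3 and 73.3% for Igfbp7, against a median of 52.7% over 32851 RefSeq promoter windows of this length.

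All 8 members matched such windows, 12 in all because Igf2 has 4 and Igfbp2 has 2. AP-1 stood in 7.81% of the 32851 windows and, among the members, in Igf1 and in 1 window of Igfbp2. SP1 stood in 35.7% of all windows and in 1 of the 2 windows of Igfbp2, 2 of the 4 of Igf2 and the window of Igfbp7. A TATA box (TATAAA, 13.6% of all windows) stood at -28 in Igfbp4 and, on the opposite strand, at -148 in Igfbp6. The TEAD motif (GGAATG, 14.7%) stood in 3 of the 4 windows of Igf2 and in that of Igfbp5, the p53 half-site (8.36%) and the SRF CArG box (1.63%) each in 1 window of Igf2, and the FOXO motif (TGTTTAC, 3.65%) in none of the 12. Such matches describe letters in these windows and do not show binding.

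Igfbp4 (chromosome 11, 99041244 to 99054392, plus strand) encodes a binding protein that mostly restrains IGF action until it is cut. It had 445 and 436 CPM in NF1-MET in vehicle and 1036 and 1033 CPM in capmatinib. The NF1-MET;sgP53 levels were 314 and 300 CPM in vehicle and 760 CPM in both capmatinib libraries. The 4 groups did not overlap. The log2 change was 1.21 ± 0.0208 (SE, edgeR, adjusted p = 1.05e-30) in NF1-MET and 1.31 ± 0.0282 (adjusted p = 1.72e-20) in NF1-MET;sgP53.

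Igfbp6 (chromosome 15, 102144362 to 102149511, plus strand) encodes the member with a preference for IGF2. It had 259 CPM in both NF1-MET vehicle libraries and 157 and 153 CPM in capmatinib. The NF1-MET;sgP53 values were 194 and 188 CPM in vehicle and 144 and 141 CPM in capmatinib. All capmatinib libraries lay below all vehicle libraries, but the step was shallower in NF1-MET;sgP53. The log2 change was -0.76 ± 0.0258 (SE, edgeR, adjusted p = 1.87e-22) in NF1-MET and -0.42 ± 0.0324 (adjusted p = 1.18e-10) in NF1-MET;sgP53.

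Igfbp2 and Igfbp5, binding proteins common in the nervous system and in bone and muscle, lie as tail-to-tail neighbours on chromosome 1 with a gap of 5457 bases and no gene between them. Igfbp2 (72824503 to 72852474) had 0 and 0 counts in NF1-MET in vehicle, 7 and 8 in capmatinib, 1 and 0 in NF1-MET;sgP53 in vehicle, and 18 and 10 in capmatinib. In NF1-MET it was at least 5.76-fold higher with capmatinib when 3 counts over the vehicle group are taken as the limit, and the exact 95% counting interval of 15 counts against 0, which covers the error of both, began at 4.14. In NF1-MET;sgP53 the ratio was 30.2 with an exact 95% counting interval of 4.99 to 1234, from 28 counts against 1. Even the highest library had only 0.511 CPM. Only the 2 libraries of NF1-MET;sgP53 in capmatinib reached 10 counts, so no test of Igfbp2 is given in any comparison. The intervals cover counting error alone and are not read as tests of these increases. Igfbp5 (72857932 to 72874884) had 0 to 2 counts in 7 libraries and 6 counts in 1 duplicate of NF1-MET;sgP53 in capmatinib, which had 1 count in the other, so no change was detectable. Igfbp1, the neighbour of Igfbp3 at 3539 bases on chromosome 11, had 1 count in all 8 libraries together.

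**Figure D2:**
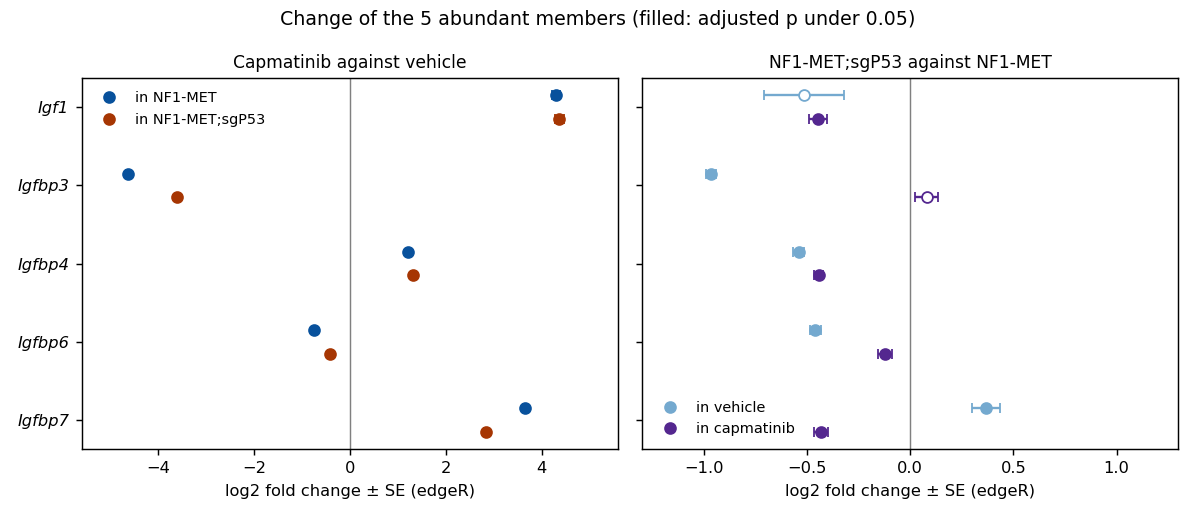
Log2 fold change with its SE (edgeR) for the 5 abundant members, for capmatinib against vehicle in each line (left) and for NF1-MET;sgP53 against NF1-MET in each treatment (right), where filled points have an adjusted p under 0.05. The drug panel spans -4.64 to 4.36, the line panel -0.97 to 0.37, and Igfbp7 lies on opposite sides of 0 in the line panel.

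Between the lines, the called differences of the members were below 2-fold, and most of them were lower in NF1-MET;sgP53. In vehicle, Igfbp3, Igfbp4 and Igfbp6 were lower, Igfbp7 was higher and Igf1 was not called, among 5 members tested. The test called 23.2% of all genes in this comparison (10.9% higher, 12.3% lower). The largest difference was that of Igfbp3, with a log2 difference of -0.97 ± 0.0253 (SE, edgeR, adjusted p = 3.36e-16), the 278th lowest of 14484 genes. Igfbp4 differed by -0.54 ± 0.0266 (adjusted p = 6.15e-12), Igfbp6 by -0.46 ± 0.0270 (adjusted p = 8.54e-11) and Igfbp7 by 0.37 ± 0.0697 (adjusted p = 0.000503). For Igf1 the log2 difference was -0.52 ± 0.195 (adjusted p = 0.0641). This call depended on the fit, with an adjusted p of 0.0187 when all 8 libraries shared 1 model and of 0.0396 with no filter on low counts.

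In capmatinib, of the 5 members past the filter in vehicle, Igf1, Igfbp4, Igfbp6 and Igfbp7 were lower in NF1-MET;sgP53. Igfbp3 was not called, and none of the 5 was called higher. Igfbp2 is left out, as it passed the filter only through NF1-MET;sgP53 in capmatinib. The test called 12.3% of all genes here (5.94% higher, 6.34% lower). The log2 difference was -0.45 ± 0.0450 for Igf1 (SE, edgeR, adjusted p = 1.55e-06), -0.44 ± 0.0207 for Igfbp4 (adjusted p = 8.69e-11) and -0.43 ± 0.0325 for Igfbp7 (adjusted p = 4.81e-08). That of Igfbp3 was 0.08 (95% interval -0.04 to 0.20, adjusted p = 0.448). The small difference of Igfbp6, -0.12 ± 0.0329 (adjusted p = 0.0200), was lost without the first duplicate of NF1-MET in capmatinib (adjusted p = 0.0871) or without the second of NF1-MET;sgP53 in capmatinib (adjusted p = 0.114), and with library totals in place of TMM factors it was -0.01. The 4 comparisons share groups pairwise, so their values are not independent.

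Whether the lines differed in their response was tested as the capmatinib effect in NF1-MET;sgP53 minus that in NF1-MET, over all 8 libraries. Among the 5 members past the filter in vehicle, the test called Igfbp3 and Igfbp6 higher and Igfbp7 lower. All of these moved less in NF1-MET;sgP53. Of all genes, 9.71% were called (3.85% higher, 5.86% lower). The difference was 1.03 ± 0.0502 for Igfbp3 (SE, log2, edgeR, adjusted p = 2.76e-13), 0.32 ± 0.0413 for Igfbp6 (adjusted p = 7.23e-06) and -0.82 ± 0.0587 for Igfbp7 (adjusted p = 3.97e-10). The response of Igf1 differed by 0.05, with a 95% interval of -0.28 to 0.37 (adjusted p = 0.915). That of Igfbp4 differed by 0.08 (interval 0.00 to 0.15, adjusted p = 0.193), which was called at 0.11 (adjusted p = 0.0309) when Gm42418 was left out and at 0.10 (adjusted p = 0.0313) with no filter. No test of Igfbp2 is given, since it passed the count filter only through NF1-MET;sgP53 in capmatinib.

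Because longer transcripts give more counts, levels were compared between genes as CPM per kb of annotated exon. In NF1-MET in vehicle the order was Igfbp6 (233 ± 0.266, SD, n = 2), Igfbp3 (190 ± 4.26), Igfbp4 (99.8 ± 1.47), Igfbp7 (10.8 ± 0.398) and Igf1 (0.225 ± 0.00752). In capmatinib Igfbp4 led (234 ± 0.384), Igfbp6 (139 ± 2.64) and Igfbp7 (137 ± 0.235) did not differ beyond their spread, and Igfbp3 (7.65 ± 0.422) and Igf1 (4.49 ± 0.0495) followed. In NF1-MET;sgP53 the order in vehicle was Igfbp6 (171 ± 3.79), Igfbp3 (98.6 ± 1.65), Igfbp4 (69.6 ± 2.15), Igfbp7 (14.2 ± 0.305) and Igf1 (0.159 ± 0.0127). In capmatinib it was Igfbp4 (172 ± 0.00176), Igfbp6 (128 ± 2.30), Igfbp7 (102 ± 2.35), Igfbp3 (8.11 ± 0.154) and Igf1 (3.30 ± 0.0882). Igf2, Igfbp2 and Igfbp5 stayed at or below 0.213 CPM per kb in each group. With the length of the longest transcript the order changed at 1 place, Igfbp3 (246) above Igfbp6 (233) in NF1-MET in vehicle.

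The sum over the 6 binding proteins was 533 ± 6.40 CPM per kb (SD, n = 2) in NF1-MET in vehicle and 519 ± 2.86 in capmatinib, and 354 ± 7.92 and 410 ± 0.179 in NF1-MET;sgP53. Without the low-affinity Igfbp7 it was 523 ± 6.00 in NF1-MET in vehicle and 381 ± 2.63 in capmatinib, and 340 ± 7.61 and 309 ± 2.53 in NF1-MET;sgP53, so the direction in that line turned with the inclusion of Igfbp7. Igfbp3 made up 35.6% of the sum over all 6 in NF1-MET in vehicle and 1.48% in capmatinib, while Igfbp4 went from 18.7% to 45.2% and Igfbp7 from 2.03% to 26.4%. In NF1-MET;sgP53 Igfbp3 went from 27.9% to 1.98%, Igfbp4 from 19.7% to 42.0% and Igfbp7 from 4.01% to 24.8%. Igfbp6 stood at 43.6% and 26.9% in NF1-MET cells and at 48.4% and 31.2% in NF1-MET;sgP53. Per kb, the ratio of Igfbp4 to Igfbp3 RNA was 0.525 in vehicle and 30.7 in capmatinib in NF1-MET cells, and for NF1-MET;sgP53 it was 0.705 and 21.2. Binding protein RNA exceeded Igf1 RNA 2371-fold per kb in NF1-MET in vehicle and 115-fold in capmatinib, and for NF1-MET;sgP53 these ratios were 2236 and 124. These sums, shares and ratios depend on the length used. With the longest transcript, the shares in NF1-MET in vehicle were 40.6% for Igfbp3 and 38.5% for Igfbp6.

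**Figure D3:**
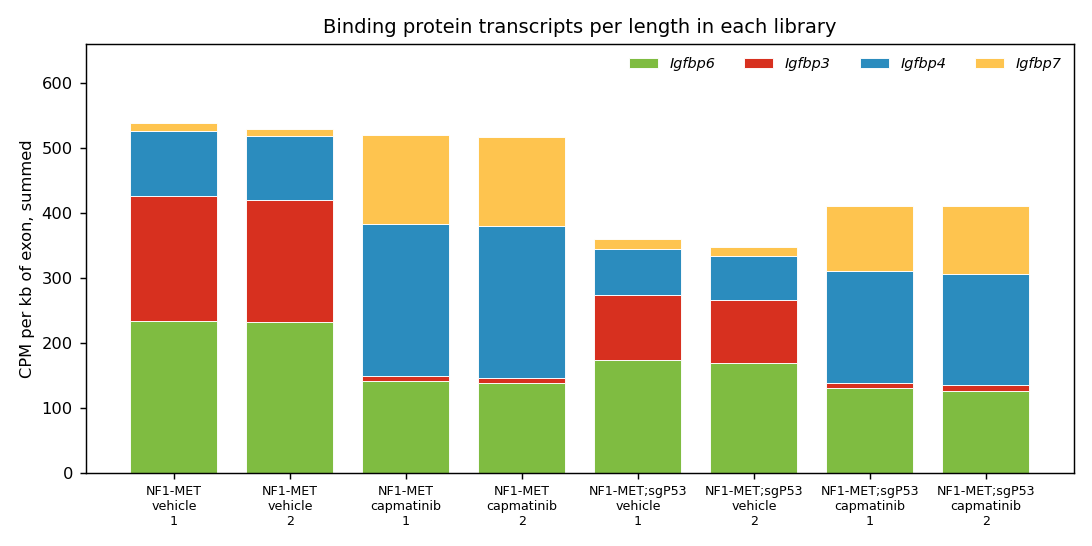
Stacked CPM per kb of exon of Igfbp6, Igfbp3, Igfbp4 and Igfbp7 in each of the 8 libraries, 2 per group. The NF1-MET bars are of like height in both treatments (group means over all 6 binding proteins 533 and 519), while Igfbp3 shrinks and Igfbp4 and Igfbp7 widen with capmatinib.

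The genes whose profile over the 8 libraries was most like that of a member were found by the root-mean-square difference of centred log2(CPM + 0.5) values among 9070 genes. Nearest to Igf1 were Itga8, an integrin subunit, at 0.182, and Cemip, a hyaluronan-degrading protein, at 0.214. Nearest to Igfbp3 were Gpr165 at 0.163 and the urea transporter gene Slc14a1 at 0.213. Igfbp7 was nearest to Lrrc32 at 0.139 and Ldb3 at 0.147, Igfbp4 to Nfatc4 at 0.0826 and Ier3 at 0.110, and Igfbp6 to Rassf8 at 0.0333 and Tsc22d1 at 0.0381. Among the 5 abundant members, Igf1 and Igfbp7 were the closest pair at 0.493, and Igf1 and Igfbp3 the farthest at 4.07.

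Of 26 further genes of the pathway, 16 were tested. Of these, Igf2bp1 and Pappa2 passed the count filter only through their capmatinib libraries. With capmatinib 8 of the other 14 were called higher and 5 lower in NF1-MET cells, where 70.2% of all genes were called, and for NF1-MET;sgP53 these numbers were 9 and 3, where 67.6% were. Their median log2 change was 0.56 and 0.45 against 0.00 over all genes. Among 4 receptors, Igf1r, which carries the growth signal of both ligands, went from 236 CPM in both NF1-MET vehicle libraries to 358 and 364 CPM in capmatinib, a log2 change of 0.59 ± 0.0235 (SE, edgeR, adjusted p = 9.98e-21). In NF1-MET;sgP53 it went from 228 and 224 to 337 and 334 CPM, a log2 change of 0.57 ± 0.0297 (adjusted p = 1.23e-13). The clearance receptor Igf2r fell by 0.13 and 0.15 in log2 units, and the insulin receptor gene Insr fell by 0.36 in NF1-MET. In NF1-MET;sgP53 its log2 change was 0.04 and not called, and the tested difference between the effects was 0.38 (edgeR, adjusted p = 1.09e-05). All 5 tested adaptor genes (Irs1, Irs2, Shc1, Grb10 and Grb14) were called higher in both lines, where 35.5% and 34.2% of all genes were. They did not rise alike: Irs1, a docking protein of the receptor, had a log2 change of 0.55 ± 0.0354 (SE) in NF1-MET against 0.10 ± 0.0338 in NF1-MET;sgP53, and the effects differed by -0.47 (edgeR, adjusted p = 1.34e-07). The smaller of these changes is within the shift that scaling by library totals gives the median of all genes in that line, -0.12.

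Extracellular proteases release IGF by cutting its binding proteins. Pappa, the metalloprotease that cuts IGFBP4, had 15 and 16 counts in NF1-MET in vehicle, 77 and 98 in capmatinib, 14 and 5 in NF1-MET;sgP53 in vehicle and 224 and 206 in capmatinib. Its log2 change was 2.68 ± 0.267 (SE, edgeR, adjusted p = 1.46e-10) in NF1-MET and 4.59 ± 0.266 (adjusted p = 7.87e-13) in NF1-MET;sgP53. The latter rests on few vehicle counts, and was 5.64 without the first vehicle duplicate of that line and 3.87 without the second. The tested difference between these, 1.89 (adjusted p = 0.0136), was 2.95 without the first duplicate of NF1-MET;sgP53 in vehicle and was lost in 3 of the 8 fits that left out 1 library, either duplicate of NF1-MET in vehicle (adjusted p = 0.0698 and 0.0652) or the second of NF1-MET;sgP53 in vehicle (1.18, adjusted p = 0.140). Its relative Pappa2, which cuts IGFBP3 and IGFBP5, had 4 to 9 counts per library in vehicle, 13 and 25 in NF1-MET in capmatinib and 74 and 60 in NF1-MET;sgP53 in capmatinib. As for Igfbp2, no test of its increases with capmatinib is given. In capmatinib, NF1-MET;sgP53 was above NF1-MET for Pappa (1.18 on the log2 scale, adjusted p = 9.59e-06) and Pappa2 (1.70, adjusted p = 0.000558), while Igfbp4 was below it.

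Htra1, a secreted serine protease, stood at 101 and 98.6 CPM in NF1-MET in vehicle and 397 in both capmatinib libraries. In NF1-MET;sgP53 it stood at 167 and 166 CPM in vehicle and at 540 and 532 CPM in capmatinib. The log2 change was 1.98 ± 0.0254 (SE, edgeR, adjusted p = 3.70e-34) and 1.69 ± 0.0294 (adjusted p = 3.86e-22). Htra3 had a log2 change of 0.57 (adjusted p = 0.0591, not called) in NF1-MET and 1.33 ± 0.243 (adjusted p = 4.92e-05) in NF1-MET;sgP53, and the difference was not called (0.74, adjusted p = 0.221). The stanniocalcins, which block the PAPP-A proteases, fell in NF1-MET, Stc1 by 1.26 in log2 units (SE 0.129, adjusted p = 2.99e-10) and Stc2 by 0.94 (SE 0.0702, adjusted p = 1.63e-13). In NF1-MET;sgP53 Stc2 fell by 0.79, while Stc1 had 3.43 and 3.14 CPM in vehicle and 3.29 and 2.62 CPM in capmatinib, a log2 change of -0.15 that was not called. The effects on Stc1 differed by 1.09 ± 0.206 (adjusted p = 0.000771). In vehicle Stc1 was lower in NF1-MET;sgP53 than in NF1-MET by a log2 difference of -1.05 ± 0.119 (SE, edgeR, adjusted p = 1.14e-06). In capmatinib the log2 difference was 0.06 (adjusted p = 0.879, not called).

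**Figure D4:**
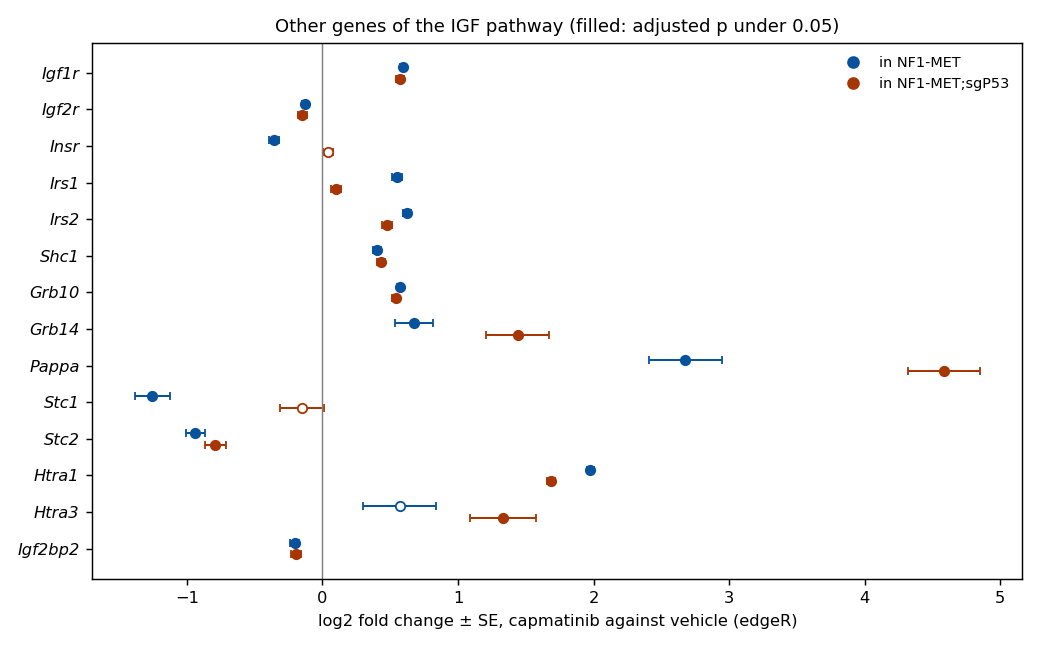
Log2 fold change with its SE (edgeR) of 14 further IGF pathway genes, capmatinib against vehicle, in each of the lines, with filled points for an adjusted p under 0.05. Pappa and Htra1 lie farthest to the right in both lines, and the tested difference between the lines was called for Insr, Irs1, Irs2, Pappa, Stc1 and Htra1. Igf2bp1 and Pappa2, which passed the count filter only through capmatinib, are not drawn.

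Among the rest of the list, Igf2bp1, an RNA-binding protein that binds Igf2 mRNA, had 1 and 0 counts in NF1-MET in vehicle and 35 and 31 in capmatinib, a ratio of 76.1 (exact 95% counting interval 13.2 to 3050). In NF1-MET;sgP53 it had 2 and 4 counts in vehicle and 24 and 41 in capmatinib, a ratio of 11.7 (5.08 to 33.0). Because the filter rested on the capmatinib libraries, these intervals are not read as tests of the increases. Grb14, an adaptor that inhibits insulin receptor signalling, had 3.03 CPM in both NF1-MET vehicle libraries and 1.13 and 0.960 in NF1-MET;sgP53 in vehicle, a log2 difference of -1.56 ± 0.200 (SE, edgeR, adjusted p = 5.68e-06). With capmatinib it rose by 0.67 and 1.44, a difference that was not called (0.75, adjusted p = 0.0789). Between the lines, in vehicle the test called 3 of the 16 higher and 6 lower, against 23.2% of all genes called, and under capmatinib it called 5 higher and 5 lower, against 12.3%. The responses of 6 of the 16 differed, 3 in each direction, against 9.71% of all genes. Not tested for lack of counts were the insulin genes Ins1 and Ins2, Insrr, Irs4, Igfals, Igfbp1, Igfbpl1, Igf2bp3, H19 and Igf2os.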

How the data were processed

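Raw gene counts of 8 poly(A) libraries were used as deposited: per the labels and the submitters' processing notes the authors trimmed paired reads with Trim Galore 0.4.2, aligned them to mm10 with STAR 2.5.2b and took its gene counts, with demultiplexing by bcl2fastq 1.9.0 and quality checks by FastQC 0.11.7. The annotation release and the strand setting are not given in the sources used here. Without strand, reads of overlapping genes cannot be told apart.

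Genes were kept at 10 or more counts in at least 2 of the 8 libraries, and within a comparison above 0 in at least 2 of its libraries, which left 14497 genes. The genes removed held 0.0396% of the counts. Each of 4 pairwise comparisons was fitted on its own 4 libraries, and the difference of the capmatinib effects on all 8, with edgeR 4.0.16 in R 4.3.3 (TMM factors of 0.898 to 1.10, quasi-likelihood F-test, Benjamini-Hochberg adjustment over all genes tested, threshold 0.05). SE is the log2 change over the root of F, and 95% intervals use the test's degrees of freedom. Intervals and limits from counts cover counting error only. The fit was also run on simulated counts with 200 changed genes. This is a far smaller share than the capmatinib comparisons called, so the simulation does not speak to error control there. Alternatives were other scalings, DESeq2 1.42.0, other filters, a replicate block, 1 model for all libraries, leaving out Gm42418 and leaving out each library. Duplicates differed by 1.54 to 1.78 times sampling noise (median squared difference) and were counted as separate samples.

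Named are all 8 members, the pathway genes called with at least a 2-fold change in any comparison, the 2 nearest profiles of each member at 10 CPM or more, and label checks. Other pathway genes are named for their role and were chosen after their values were seen. The members and lists were chosen with earlier results of these data known. Positions and exon lengths come from GENCODE M21, which holds 99.56% of the gene identifiers, and start regions from RefSeq on GRCm38.p6, both of the mm10 assembly.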

Additional observations from a re-analysis of the deposited data

Results flagged for a closer look

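The capmatinib effect differed between the lines by the test of the difference itself (edgeR quasi-likelihood test over the 8 libraries, Benjamini-Hochberg adjustment) for 3 members. The effect in NF1-MET;sgP53 minus that in NF1-MET was 1.03 on the log2 scale for Igfbp3, 0.32 for Igfbp6 and -0.82 for Igfbp7. In the 8 fits that left out 1 library each, the difference kept its sign and its call for each of the 3, between 0.98 and 1.09, between 0.30 and 0.37, and between -0.86 and -0.78. Groups of 2 libraries are too small for a search for outlying samples.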

How the results depend on the processing

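Of 383 recomputed values for the members, Igfbp2 among them, 371 kept their direction and their side of the threshold. So did 219 of 222 for the pathway genes, recomputed only in comparisons that called them with at least a 2-fold change. Smaller or uncalled changes of pathway genes, such as those of Igf1r, Insr and Irs1, were not recomputed. With library totals in place of TMM factors the median of all genes shifted to -0.18 and -0.12 on the log2 scale in the capmatinib comparisons (NF1-MET and NF1-MET;sgP53) and to 0.11 between the lines in capmatinib, and the share of calls that were higher went from 50.5% to 35.5%, from 50.6% to 39.8% and from 48.4% to 80.6%. It went from 47.1% to 63.3% between the lines in vehicle, or to 57.2% with 1 model for all libraries, and from 39.7% to 61.0% for the difference of the effects. The genes called between the lines in vehicle numbered 3355, against 2023 with library totals and 1915 with DESeq2. In capmatinib they numbered 1778, against 666 and 848, and for the difference of the effects 1407, against 315 and 827. The causes were not tested.

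Leaving out 1 library gave 1074 to 1303 genes called between the lines in capmatinib, 1074 of them without the second duplicate of NF1-MET in capmatinib. The difference of the capmatinib effects on Igf1, not called, ranged from -0.023 to 0.14 and that on Igfbp2 from -2.43 to 0.78, each changing sign without the first duplicate of NF1-MET;sgP53 in vehicle. Each such fit used the 4-group model, so a lone library is assumed to vary like the other groups. The line difference of Igf1 in vehicle was also called without the second duplicate of NF1-MET;sgP53 in vehicle (-0.59, adjusted p = 0.0424), and that of Igfbp6 in capmatinib was lost with DESeq2 (adjusted p = 0.0664).

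The labels number the duplicates 1 and 2 without saying that a number marks a shared day, and the deviations of same-numbered libraries correlated between -0.0540 and 0.149, so the numbers were not taken as pairs. With the replicate block 10141 and 9866 genes were called with capmatinib, 3994 and 1777 between the lines and 1524 for the difference of effects. Of the member calls the block changed 1, the line difference of Igf1 in vehicle (-0.52, adjusted p = 0.0371).

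At this depth Igf2 and Igfbp5 could not be tested and Igfbp2 rests on at most 18 counts a library.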
